A study of Mus musculus with 5 samples.

Results

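Transcripts of 9 genes of mitochondrial cell death were followed in the injured mouse retina: the pro-survival genes Bcl2, Bcl2l1 and Mcl1, the pore-forming effectors Bax and Bak1, the BH3-only genes Bbc3, Bcl2l11 and Hrk, and the initiator caspase gene Casp9. They were chosen by gene symbol, and all 9 were found among the 25655 gene symbols of the count table. The retinas came from wildtype C57BL/6 mice of 8 to 10 weeks, and were collected 7 days after optic nerve crush (ONC), an injury that cuts retinal ganglion cell (RGC) axons by pinching the nerve behind the eye. One group of 3 retinas (DMSO replicates 1, 2 and 3) came from mice injected daily with the vehicle DMSO, and the other of 2 retinas (Sorbinil replicates 1 and 3) from mice injected with Sorbinil, an aldose reductase inhibitor, at 10 mg/kg. Injections were intraperitoneal and began on the day before the crush in both groups. Every retina was crushed, so the response of these genes to the crush itself was not measured here. The whole retina was sequenced, and a lower level of a transcript can stem from fewer cells of a type or from less RNA per cell, which cannot be told apart.

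The BCL2 family decides whether the outer mitochondrial membrane is opened. Pro-survival proteins hold BAX and BAK in check, BH3-only proteins are made or activated under stress and neutralise the pro-survival proteins, and the pores let cytochrome c escape to assemble with APAF1 into the apoptosome, which activates caspase 9 and then the executioner caspases. In RGCs, axon injury is known to start this route, and loss of BAX is known to spare their cell bodies after ONC. Much of the family's regulation lies at the level of protein binding, cleavage and turnover, which counts of RNA do not measure.

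The 5 libraries held between 56096541 and 90288552 counts on genes. Expression is given as CPM, counts scaled to a common library size after TMM normalization. All retinas carried rod, cone, bipolar, Müller glia and RGC marker transcripts. Sorbinil replicate 1 stood apart from the rest: all 12 rod markers were above every DMSO retina in it, 11 of 12 RGC markers and all 13 microglial markers were below every DMSO retina, and the summed RGC markers measured 114 CPM against 244 to 343 CPM with DMSO. In Sorbinil replicate 3 the summed RGC markers were 275 CPM, within the DMSO range, and the summed rod markers were 72550 CPM against 84966 to 101020 CPM with DMSO. Results are therefore also given without Sorbinil replicate 1.

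None of the 9 members was called between the groups. The study asked for at least a 2-fold change with p of 0.1 or less before adjustment. By this rule 0 of 9 members passed, where 1.71% of the 14992 genes tested did. With the same p and no limit on the fold, 0 of 9 members passed, where 11.3% of all genes did. This 0 became 1 under other scalings, by Bcl2 with DESeq2 size factors (p-value 0.0999) or upper-quartile scaling (p-value 0.0963), and by Mcl1 with library size only (p-value 0.0743), all in edgeR. The share of all genes under that rule was not computed for these scalings, so this is no result about the members. No gene of the whole table had an adjusted p-value under 0.05 by edgeR's quasi-likelihood test, while 751 genes (5.01%) were under 0.05 before adjustment, 0 of the 9 members among them. All 9 members passed the filter on low counts. Their log2 fold changes, Sorbinil against DMSO, ran from -0.51 for Bbc3 to 0.26 for Bcl2l11, with a median of -0.07, and the median over all genes tested was -0.01. The 95% interval of the change lay within a 2-fold change in either direction for 7 of the 9 members, and for 62.6% of all genes tested. It reached past a 2-fold decrease for Bbc3 and Hrk, the least abundant members.

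**Figure D1:**
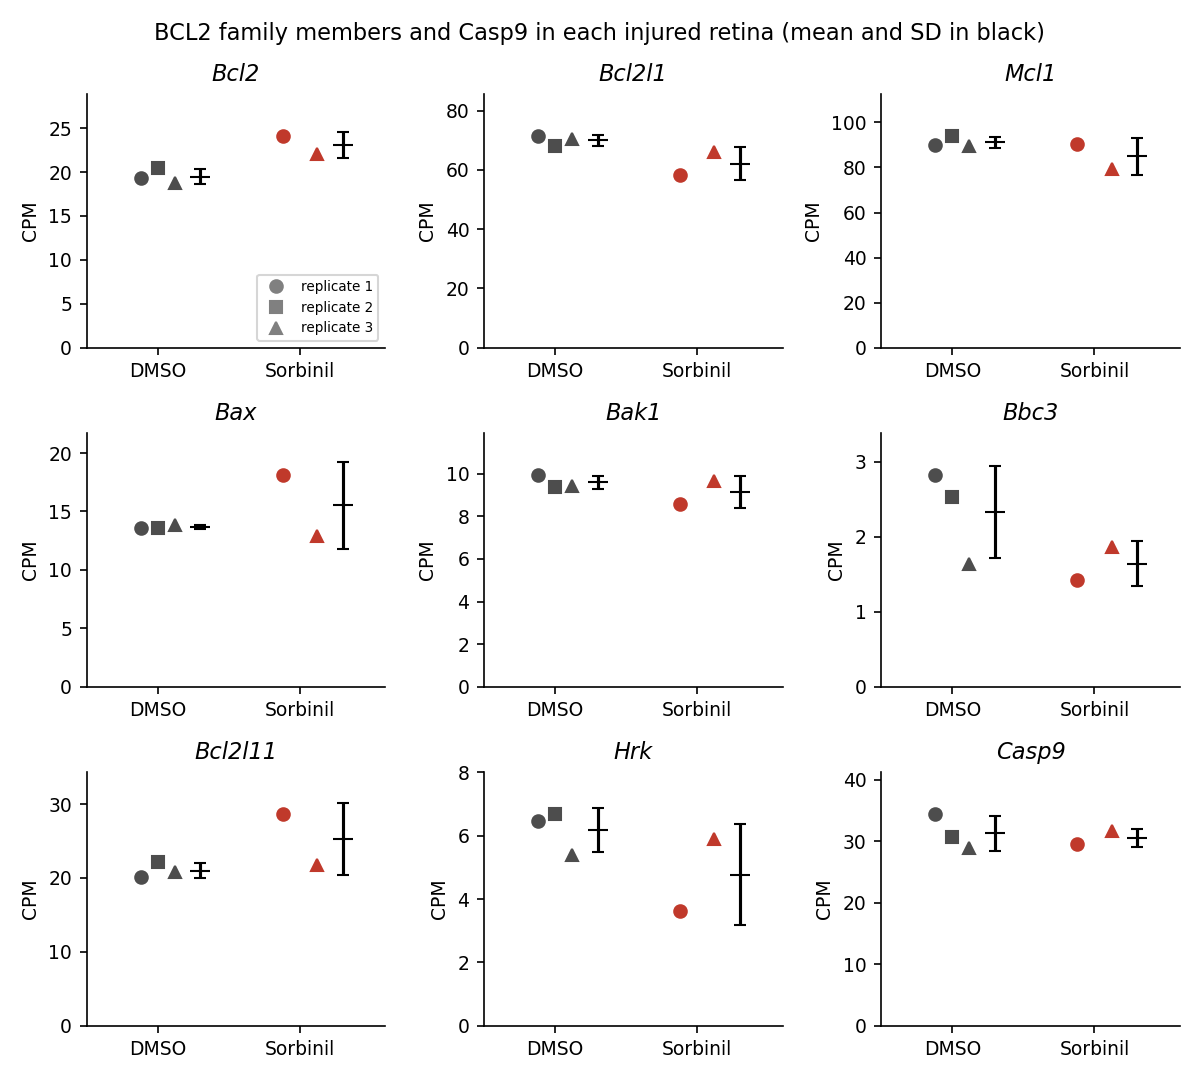
Expression in CPM (vertical axis, from 0) of each member in the 3 DMSO retinas (grey) and the 2 Sorbinil retinas (red), with a symbol for each replicate number and the mean and SD beside them in black. Neither Sorbinil point of Bcl2 (above) or Bcl2l1 (below) falls within the DMSO points, and the groups of the other 7 members overlap.

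Among the pro-survival genes, Bcl2 was higher and Bcl2l1 lower in both Sorbinil retinas, while Mcl1 overlapped. Bcl2 (ENSMUSG00000057329, GRCm39 chromosome 1 from 106465908 to 106642060, minus strand), the founding member whose protein sits on mitochondria and the endoplasmic reticulum, measured 19.3, 20.4 and 18.8 CPM in DMSO replicates 1, 2 and 3. It measured 24.1 and 22.01 CPM in Sorbinil replicates 1 and 3. Both Sorbinil retinas were thus above every DMSO retina. Its change of 0.24 on the log2 scale (standard error 0.13) was a difference of 18.3% with a 95% interval of -4.51% to 46.7%, and missed the threshold (unadjusted p-value 0.102, adjusted p-value 0.758, edgeR's quasi-likelihood test). The exact permutation test, two-sided, gave p = 0.1, which no grouping of 2 and 3 retinas can go under. With Sorbinil replicate 1 left out it was 0.19 on the log2 scale.

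Bcl2l1 (ENSMUSG00000007659, chromosome 2 from 152622582 to 152673655, minus strand) encodes BCL-XL, a main pro-survival protein of adult neurons. It measured 71.5, 68.0 and 70.4 CPM with DMSO, and 58.1 and 66.0 CPM in Sorbinil replicates 1 and 3. Both Sorbinil retinas lay below every DMSO retina, with Sorbinil replicate 1 the lower of them. A log2 fold change of -0.17 (standard error 0.12) is a difference of -11.3%, with a 95% interval of -27.2% to 8.14% (unadjusted p-value 0.188, adjusted p-value 0.758). Without Sorbinil replicate 1 the log2 fold change was -0.07. Groups that do not overlap, in either direction, were thus seen for 2 of 9 members, and for 23.2% of all genes tested, so the members' share is near the background.

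Mcl1 (ENSMUSG00000038612, chromosome 3 from 95566026 to 95570487, plus strand), which encodes a pro-survival protein of rapid turnover, measured 89.9, 94.0 and 89.6 CPM with DMSO. The Sorbinil retinas measured 90.6 CPM in replicate 1, inside the DMSO range, and 79.1 CPM in replicate 3, below it. Mcl1 changed by -0.10 on the log2 scale (standard error 0.12), and the 95% interval of the difference was -24.0% to 14.0%. Here the lower retina was Sorbinil replicate 3. Leaving it out gave -0.01, and leaving out Sorbinil replicate 1 gave -0.19.

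Among the effector genes the groups overlapped, and for Bax the Sorbinil retinas lay on either side of the DMSO range. Bax (ENSMUSG00000003873, chromosome 7 from 45111015 to 45116325, minus strand), whose protein forms the mitochondrial pore in injured RGCs, was nearly level across the DMSO retinas at 13.6, 13.6 and 13.9 CPM. Sorbinil replicate 1 was above them at 18.1 CPM and Sorbinil replicate 3 below them at 12.9 CPM. For Bax the log2 fold change was 0.18 (standard error 0.18, unadjusted p-value 0.360, edgeR's quasi-likelihood test), and it turned to -0.07 without Sorbinil replicate 1. The 95% interval of the Bax difference was wide, from -17.0% to 55.0%. Bak1 (ENSMUSG00000057789, chromosome 17 from 27238784 to 27247983, minus strand), the gene of the other effector, measured 9.95, 9.39 and 9.45 CPM with DMSO and 8.60 and 9.66 CPM with Sorbinil. For Bak1 the log2 fold change was -0.07 (standard error 0.15), and the 95% interval of the difference was -26.7% to 23.6%. It was 0.02 without Sorbinil replicate 1.

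The BH3-only genes varied most among the members, and Sorbinil replicate 1 was the extreme retina for all 3. Bcl2l11 (ENSMUSG00000027381, chromosome 2 from 127967958 to 128004476, plus strand), the gene of BIM, measured 20.1, 22.1 and 20.8 CPM with DMSO. Sorbinil replicate 1 was higher at 28.7 CPM, while Sorbinil replicate 3, at 21.8 CPM, lay within the DMSO range. For Bcl2l11 the log2 fold change was 0.26 (standard error 0.16, unadjusted p-value 0.152, adjusted p-value 0.758), and 0.06 without Sorbinil replicate 1.

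Bcl2l11 is a known target of FOXO transcription factors. The letters GTAAACA, which fit FOXO binding, were searched in 250 bases before the start of each member's canonical transcript (GENCODE vM39, GRCm39). Both strands were searched. For Bcl2l1, Bbc3 and Hrk that transcript starts inside the gene span given here, so their windows lie within the span. Bcl2l11 and Bak1 were the 2 of 9 members that held them, and 2.72% of the 21757 protein-coding promoters of the same length did. The Bcl2l11 window is printed since it holds the match farthest from the start, between 227 and 221 bases before it, with the match in capitals, and lies at chr2:127967708-127967957 on the plus strand.
Bcl2l11 promoter: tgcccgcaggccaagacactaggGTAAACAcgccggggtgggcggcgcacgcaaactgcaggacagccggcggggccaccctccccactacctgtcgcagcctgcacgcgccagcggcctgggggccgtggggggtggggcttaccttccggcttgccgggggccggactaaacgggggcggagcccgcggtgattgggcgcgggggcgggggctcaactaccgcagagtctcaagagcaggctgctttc
The match is a description of the letters. Neither the AP-1 site TGANTCA (6.18% of all promoters), nor the cyclic AMP element TGACGTCA (1.7%), nor the p53 response element (0.0368%) was found in the window of any member.

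Bbc3 (ENSMUSG00000002083, chromosome 7 from 16042318 to 16052130, plus strand), the gene of PUMA and a p53 target, was the least abundant member in CPM. It measured 2.82, 2.53 and 1.64 CPM with DMSO, from 273, 202 and 91 counts, and 1.43 and 1.86 CPM in Sorbinil replicates 1 and 3, from 75 and 126 counts. The groups overlapped, since DMSO replicate 3 lay below Sorbinil replicate 3. For Bbc3 the log2 fold change was -0.51 (standard error 0.33, unadjusted p-value 0.182, edgeR's quasi-likelihood test), and the interval of the difference was wide, from -60.2% to 24.7%. It was -0.32 without Sorbinil replicate 1. Hrk (ENSMUSG00000046607, chromosome 5 from 118302713 to 118327543, plus strand), whose product Harakiri is a neuronal BH3-only protein, measured 6.47, 6.69 and 5.40 CPM with DMSO. It was 3.63 CPM in Sorbinil replicate 1, below every DMSO retina, and 5.89 CPM in Sorbinil replicate 3, within their range. Its value on the log2 scale, -0.38 (standard error 0.27, unadjusted p-value 0.211), became -0.06 without Sorbinil replicate 1. The neuronal and glial markers of the inner retina were low in that same retina, and their part in the value of Hrk was not tested.

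Casp9 (ENSMUSG00000028914, chromosome 4 from 141520923 to 141546508, plus strand), the caspase activated on the apoptosome, was close to level. It measured 34.4, 30.6 and 28.8 CPM with DMSO and 29.5 and 31.6 CPM with Sorbinil, so that both Sorbinil retinas lay inside the DMSO range. For Casp9 the log2 fold change was -0.04 (standard error 0.13, unadjusted p-value 0.796, adjusted p-value 0.931, edgeR's quasi-likelihood test), with a 95% interval of the difference from -22.1% to 22.2%. Activation of caspase 9 is a change of the protein and is not seen in these counts.

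The members were then ordered by their level per exonic length, in CPM per kb of exon, since a longer transcript collects more counts. Exonic length joined the exons of all annotated transcripts of a gene, so it can exceed the length of any single transcript. Mcl1 was highest at 26.1 ± 0.70 (SD, n = 3) in the DMSO retinas, followed by Bcl2l1 at 13.6 ± 0.34, Bax at 7.37 ± 0.09 and Bak1 at 3.99 ± 0.13. Casp9 followed at 3.80 ± 0.35, and its range overlapped that of Bak1. Bcl2 at 2.12 ± 0.09 and Bcl2l11 at 2.08 ± 0.10 overlapped each other as well, and Hrk at 1.08 ± 0.12 and Bbc3 at 0.486 ± 0.129 were lowest. Apart from those 2 overlapping pairs, each neighbour in this order was apart in all 5 retinas, and the Sorbinil means gave the same order. Per exonic length, Bcl2 was thus the least abundant of the 3 pro-survival genes. The order depends on the length used. Per kb of the whole gene, Bcl2, which spans 176.2 kb, fell to the last of the 9 places, and it is not stated whether reads in introns were counted.

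**Figure D2:**
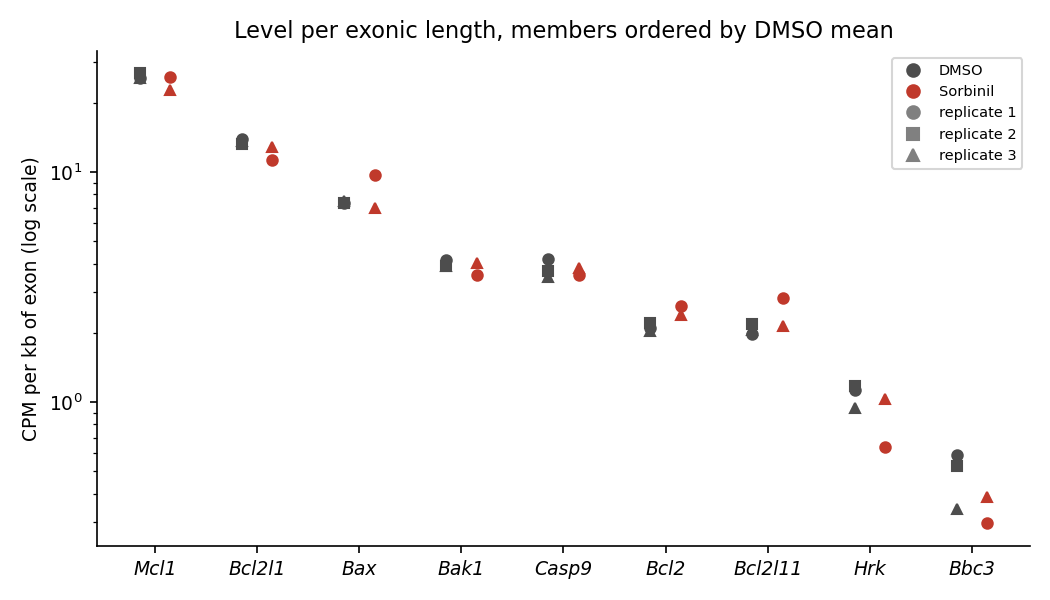
Level of each member in CPM per kb of exon (logarithmic vertical axis) in every DMSO retina (grey) and Sorbinil retina (red), ordered by the DMSO mean. Mcl1 is highest and Bbc3 lowest, and Bak1 with Casp9 and Bcl2 with Bcl2l11 lie at about the same height.

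Ratios of counts within a retina do not depend on scaling, and were used to set death-promoting against pro-survival genes. The ratio of Bax to Bcl2 counts was 0.704, 0.665 and 0.740 in the DMSO retinas, and 0.752 and 0.586 in Sorbinil replicates 1 and 3. The Sorbinil retinas thus lay on either side of the DMSO range. The ratio of Bcl2l11 to Mcl1 counts was 0.223, 0.235 and 0.232 with DMSO and 0.316 and 0.275 with Sorbinil, so that both Sorbinil retinas were above the DMSO range. The ratio of Bax to Mcl1 counts behaved alike, at 0.151, 0.144 and 0.155 with DMSO against 0.200 and 0.163 with Sorbinil. Of the 6 ratios computed, these 2 had groups that did not overlap, and no share over other gene pairs was computed beside them. Both are taken to Mcl1. In Sorbinil replicate 3, Mcl1 and Bax both lay below the DMSO range in CPM, and Bcl2l11 lay within it. In Sorbinil replicate 1, Bax and Bcl2l11 lay above the DMSO range, and Mcl1 lay within it. The others, Bax to Bcl2, Bax to Bcl2l1, Bcl2l11 to Bcl2 and Hrk to Bcl2l1, overlapped. These ratios describe counts, not molecules, and no test was made on them.

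**Figure D3:**
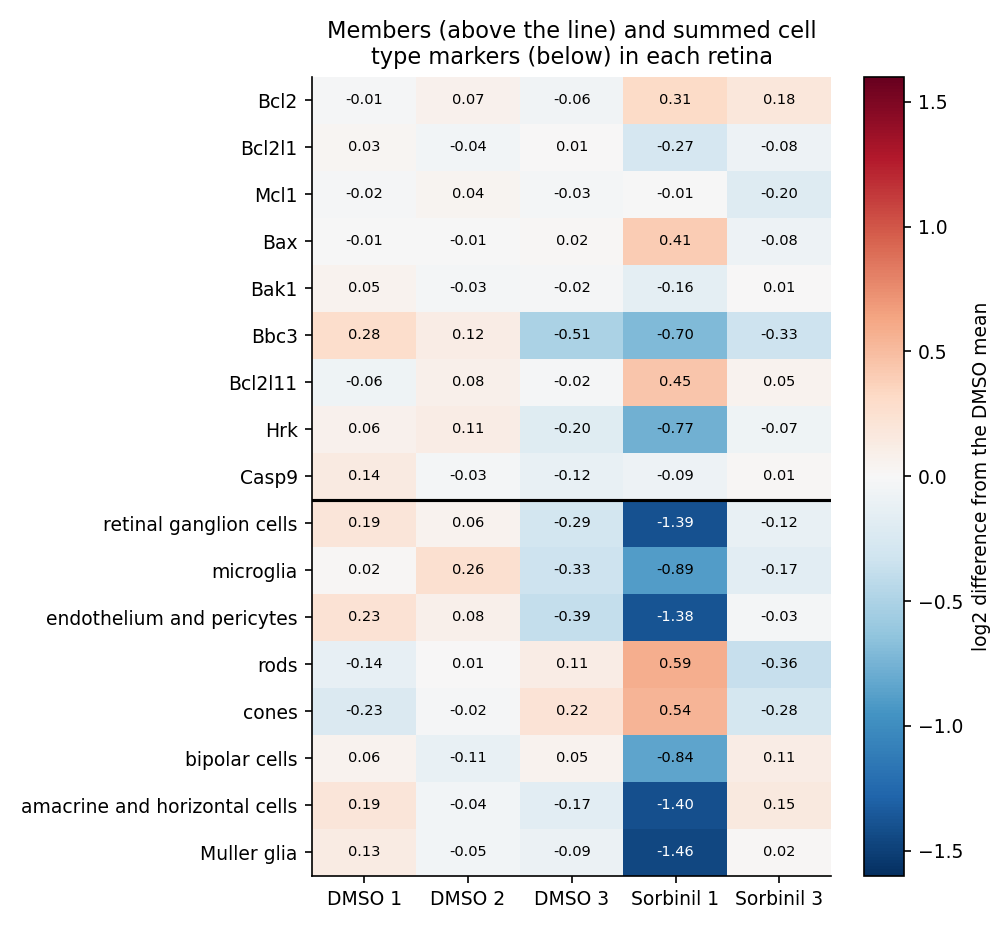
Difference of each retina from the DMSO mean on a log2 scale (colour and printed value) for the 9 members, above the line, and for summed markers of 8 retinal cell types, below it. Sorbinil replicate 1 stands out above and below the line, and the members in Sorbinil replicate 3 range from -0.33 to 0.18.

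Fewer members lay close to the DMSO mean in Sorbinil replicate 1 than in Sorbinil replicate 3. In Sorbinil replicate 3, 8 of 9 members were within 0.25 of the DMSO mean on the log2 scale, the exception being Bbc3 at -0.33. In Sorbinil replicate 1 only 3 of 9 members were, namely Mcl1, Bak1 and Casp9, and the members ran from -0.77 for Hrk to 0.45 for Bcl2l11. In the DMSO retinas 8, 9 and 8 members were within that limit, and Bbc3 was the exception in DMSO replicates 1 and 3. The DMSO mean includes these retinas, so they lie nearer to it by construction. The share of all genes within that limit was not computed, so these counts are no result about the members. Over all genes tested, 2812 were at least 2-fold below the DMSO mean in Sorbinil replicate 1, and 183 in Sorbinil replicate 3. In Sorbinil replicate 1 the summed rod markers were 0.59 higher than the DMSO mean on the same scale, the RGC markers stood at -1.39 and the Müller glia markers at -1.46. The part of this cell makeup in the members' values was not tested.

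The median spread of the members was below that of all genes tested, which were not matched to the members in level. The SD of log2 CPM over the 5 retinas had a median of 0.15 over the members and 0.26 over all genes tested. Bak1 varied least, with an SD of 0.08, and Bbc3 most, with an SD of 0.41. The absolute log2 fold change had a median of 0.18 over the members and 0.21 over all genes, and 5 of 9 members were below the latter value. Members with few counts had the larger standard errors, which for Bbc3 and Hrk were 0.33 and 0.27, and for Bcl2l1 and Mcl1 both 0.12.

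**Figure D4:**
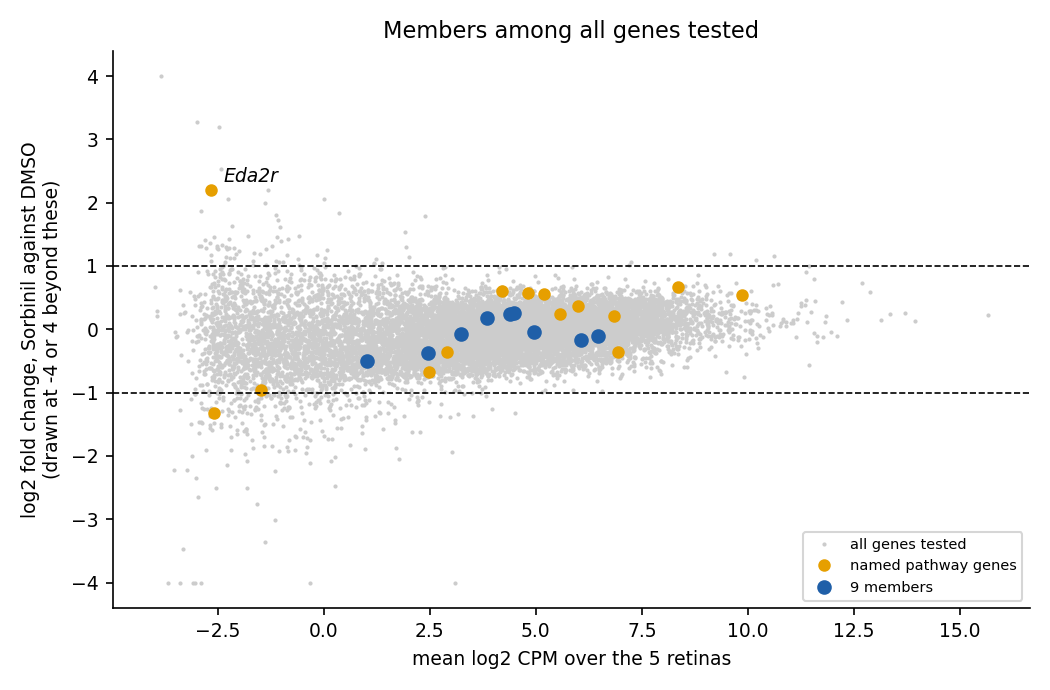
Log2 fold change of Sorbinil against DMSO (vertical axis) over mean log2 CPM (horizontal axis) for the 14992 genes tested (light grey), the 14 named pathway genes (orange) and the 9 members (blue). The members lie between -0.51 and 0.26, inside the dashed lines at a 2-fold change, and of the named genes Eda2r lies beyond the upper line and Casp12 beyond the lower one. Genes beyond -4 or 4 are drawn at those values.

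The rest of the pathway was covered by 5 lists with 61 genes tested of 69 listed. At the study's threshold 1 of the 61 was higher and 0 were lower, where 0.36% and 1.35% of all genes were called in those directions. The 1 gene, Eda2r, passed the filter on low counts only through the group where it was high. With no limit on the fold, 8 were higher and 3 lower with p of 0.1 or less before adjustment, which is 11 of 61 genes against 11.3% of all genes. Their median log2 fold change was 0.04. No gene of these lists had an adjusted p-value under 0.05 by edgeR's quasi-likelihood test. Of the 61 genes, 7 had an unadjusted p-value under 0.05 by the same test, where 5.01% of all genes did. From each list, the called genes and those with the smallest p-value, 3 in all (2 for the other caspases), are described.

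Of the other BCL2 family, 14 of 17 genes were tested and 0 were called, 7 with a positive and 7 with a negative log2 fold change. Bmf, a BH3-only gene whose product is held at the cytoskeleton, had the smallest p-value. It measured 15.1, 17.4 and 14.4 CPM with DMSO and 27.5 and 20.1 CPM in Sorbinil replicates 1 and 3, both above every DMSO retina. Bmf had a log2 fold change of 0.61 (standard error 0.18, unadjusted p-value 0.0177, adjusted p-value 0.758), and 0.38 without Sorbinil replicate 1. Bnip3, a receptor for mitochondrial autophagy, measured 106.6 ± 10.5 CPM (SD, n = 2) with Sorbinil and 136 ± 18.0 CPM (SD, n = 3) with DMSO, with groups that did not overlap. Bcl2l2, the gene of the pro-survival BCL-W, lay between Mcl1 and Bcl2l1 per exonic length, at 20.2 ± 0.27 CPM per kb (SD, n = 3) with DMSO, and had a log2 fold change of 0.21 (standard error 0.14), which was 0.04 without Sorbinil replicate 1. It shares 594 exonic bases with the gene Gm20521 on the same strand, so its level is uncertain.

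Of the other caspases, 7 of 9 were tested and 0 were called. Casp1, the inflammatory caspase of the inflammasome, was counted 36, 46 and 20 times with DMSO but 11 and 16 times with Sorbinil. Its log2 fold change of -0.96 (standard error 0.41, unadjusted p-value 0.0594, edgeR's quasi-likelihood test) was just short of a 2-fold decrease, and both Sorbinil retinas were below every DMSO retina. Casp12, a caspase linked to the endoplasmic reticulum, was counted 27, 16 and 10 times with DMSO against 1 and 10 times with Sorbinil, too few for a firm value.

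Of the apoptosome, released proteins and inhibitors of apoptosis (IAPs), 15 of 16 genes were tested and 0 were called. Of these 15, 2 had p of 0.1 or less before adjustment, both higher, where 11.3% of all genes passed in either direction. Apaf1, the scaffold on which Casp9 is activated, measured 21.998, 25.1 and 25.2 CPM with DMSO, and 41.9 and 29.8 CPM in Sorbinil replicates 1 and 3. Apaf1 had a log2 fold change of 0.57 (standard error 0.18, unadjusted p-value 0.0197, adjusted p-value 0.758), and 0.32 without Sorbinil replicate 1. Birc6, a giant inhibitor of apoptosis that tags caspases with ubiquitin, had a log2 fold change of 0.67 (standard error 0.23, unadjusted p-value 0.0285), and 0.37 without Sorbinil replicate 1. Both Sorbinil retinas were above every DMSO retina for Birc6, at 517 and 350 CPM against 228 to 317 CPM. Xiap, which blocks caspase 9 directly, was 1576 CPM in Sorbinil replicate 1 and 815 CPM in Sorbinil replicate 3, the latter within the DMSO range of 681 to 955 CPM. Its log2 fold change of 0.55 became 0.01 without Sorbinil replicate 1.

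Of the upstream regulators, 12 of 14 genes were tested and 0 were called. Map3k13, the gene of the axon injury kinase LZK, measured 75.7 and 73.8 CPM with Sorbinil against 49.1 to 63.6 CPM with DMSO. Map3k13 had a log2 fold change of 0.37 (standard error 0.15, unadjusted p-value 0.0492, edgeR's quasi-likelihood test), and 0.36 without Sorbinil replicate 1. Foxo1 measured 53.1 and 51.7 CPM with Sorbinil against 42.6 to 45.3 CPM with DMSO, a log2 fold change of 0.25 (standard error 0.10, unadjusted p-value 0.0575). Trp53, the gene of p53, measured 5.71 and 7.12 CPM with Sorbinil against 7.61 to 8.96 CPM with DMSO, a log2 fold change of -0.36 (standard error 0.19, unadjusted p-value 0.111), and -0.20 without Sorbinil replicate 1. Groups that did not overlap were seen for 4 of the 12 genes tested, these 3 and Map3k12, and for 23.2% of all genes tested.

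The 13 p53 target genes were all tested, and 1 was called. Eda2r, the gene of a receptor of the TNF receptor family, was counted 4, 6 and 5 times with DMSO, and 14 and 24 times in Sorbinil replicates 1 and 3. Its log2 fold change was 2.20 (standard error 0.49, unadjusted p-value 0.00452, adjusted p-value 0.758, edgeR's quasi-likelihood test), and 2.40 without Sorbinil replicate 1. Eda2r passed the filter on low counts only through the Sorbinil retinas, where it was high. Its call is therefore no evidence of a difference. Trp53inp1, which helps p53 to induce death genes, had a log2 fold change of 0.56 (standard error 0.20) that became 0.23 without Sorbinil replicate 1. Cdkn1a, the gene of the cell cycle inhibitor p21, had one of -0.67 (standard error 0.26, unadjusted p-value 0.0457), with 3.44 and 5.10 CPM in the Sorbinil retinas against 5.58 to 7.78 CPM with DMSO. It was -0.41 without Sorbinil replicate 1. The list held 7 genes with a positive and 6 with a negative log2 fold change.

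**Figure D5:**
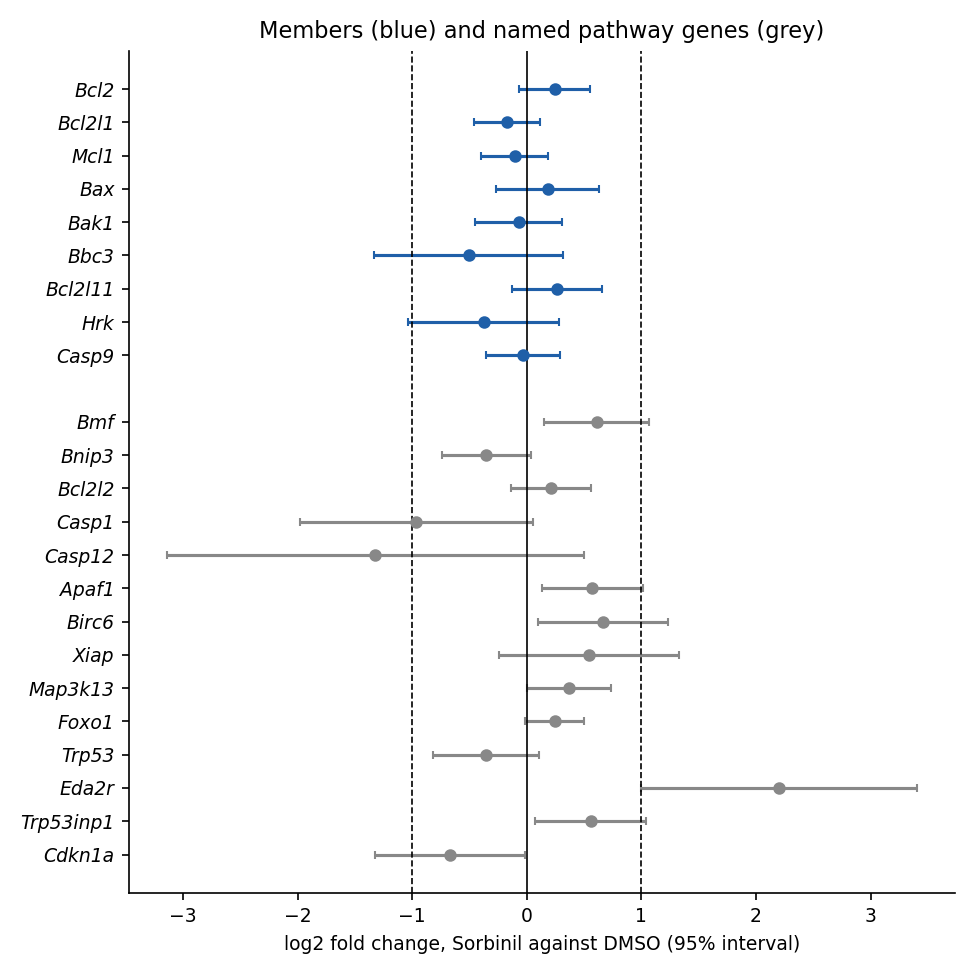
Log2 fold change of Sorbinil against DMSO (points) with its 95% interval (bars) for the 9 members (blue) and the 14 named pathway genes (grey), with dashed lines at a 2-fold change. The intervals of all 9 members include 0, and those of Bbc3 and Hrk pass the lower dashed line.

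Some counts are uncertain where genes overlap. On the same strand, Bax shares 192 exonic bases with Gm45808 and Bcl2l11 shares 69 with Gm74510. On the other strand the use of strand in counting matters, which is not stated. An antisense gene shares 558 exonic bases with Bcl2, 476 with Bcl2l1, 437 with Bak1 and 471 with Casp9, and smaller stretches with Bax and Bcl2l11, while Mcl1, Bbc3 and Hrk share exonic bases with no annotated gene.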

How the data were processed

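Total RNA of 5 injured whole retinas was sequenced from reverse stranded libraries, per the labels. The authors used CLC Genomics Workbench to trim adaptors and align reads to GRCm39, left out Sorbinil replicate 2 after PCA (not analysed here), and deposited raw total counts for each gene symbol. The annotation release, the use of strand and the treatment of introns are not given in the sources used here. Columns were matched to retinas by name, and 0 value columns were left out. Totals were 56096541 to 90288552 counts, and deeper libraries have less counting error. No retinas were duplicates, since the chi-square statistic divided by its degrees of freedom was 25.4 or more for each pair, and p-values measure the spread between these retinas.

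Genes were filtered with filterByExpr (minimum count 10), normalized with TMM and tested by the quasi-likelihood F-test (glmQLFTest) of edgeR 4.0.16 (R 4.3.3), with Benjamini-Hochberg adjustment over the 14992 genes tested. Log2 CPM used a prior count of 2. Intervals are at 95%, from the quasi-likelihood standard error. Permutation tests used log2(CPM + 0.01) over all 10 groupings. Positions and exonic lengths came from GENCODE vM39. All members are named, with 3 genes per pathway list, the called ones first and then those of smallest p-value, except 1 gene that is not reported here. The members and lists were chosen with earlier results of these data known. Alternatives were other filters, scalings and thresholds, the likelihood ratio test, DESeq2 1.42.0, the replicate number as a block, and leaving out each retina. The fits were tested on simulated data. Of the 14 listed upstream regulators, 1 was not analysed here.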

Additional observations from a re-analysis of the deposited data

How the results depend on the processing

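No member reached the study's threshold, with its 2-fold limit, under any filter, scaling, test or left-out retina that was run. The fit without Sorbinil replicate 3 leaves 1 Sorbinil retina, so only its log2 fold changes are given. They were 0.31 for Bcl2, 0.45 for Bcl2l11, 0.41 for Bax, -0.27 for Bcl2l1 and -0.77 for Hrk. For Bbc3, Bak1, Casp9 and Mcl1 they were -0.71, -0.16, -0.09 and -0.01. With no fold limit, Bbc3 had an unadjusted p-value of at most 0.1 in edgeR without DMSO replicate 3 (log2 fold change -0.70, p-value 0.0833). The share of all genes under that rule was not computed for that fit. Of 117 log2 fold changes of members under these alternatives, 113 kept their direction, and they ran from -0.77 to 0.45. The 4 that turned came from leaving out a retina: Bax ranged from -0.073 to 0.41 (lowest without Sorbinil replicate 1), Bak1 from -0.16 to 0.021 (highest without Sorbinil replicate 1) and Casp9 from -0.093 to 0.039 (highest without DMSO replicate 1, and 0.02 without Sorbinil replicate 1). The cause was not tested. Members with groups that did not overlap numbered 2 to 7 when each retina was left out, with 7 without Sorbinil replicate 3, 5 without DMSO replicate 3 and 4 without Sorbinil replicate 1. The share of all genes was not computed beside these counts, and groups of fewer retinas separate more readily. These counts are therefore no result about the members. The cause was not tested.

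The 1 pathway gene called, Eda2r, became 0 with at least 10 counts in every retina, which Eda2r does not have. There were 2 calls with library size only (Eda2r and Casp1), where 1.57% of all genes were called. The likelihood ratio test also gave 2 (Eda2r and Casp12), where 1.94% of all genes were called. There were 11 with no fold limit, where 11.3% of all genes passed, and 0 at an adjusted p-value of at most 0.05 by edgeR. Leaving out DMSO replicate 1 or DMSO replicate 3 gave 2 calls each (Casp1 added), where 1.1% and 1.99% of all genes were called. Without DMSO replicate 2 there was 1, where 1.38% of all genes were called. In fits with 1 Sorbinil retina, that retina is assumed to vary like the DMSO retinas, so the calls of those fits are not given. With library size only, the median change over all genes moved from -0.01 to -0.11.

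The shared replicate numbers are not stated to mark pairs. The deviations of same-numbered retinas from their group means had correlations of -0.24 and -0.12. With 2 Sorbinil retinas, the deviations in that group mirror each other, so these correlations cannot decide whether the numbers mark pairs. With the replicate number as a block, 0 members and 1 pathway gene were called, and 203 genes in all against 257 without it. A 2-fold decrease lies within the intervals of Bbc3, with 75 to 273 counts, and Hrk, with 191 to 626.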

Other observations

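For 2 members, the genes of most similar pattern over the 5 retinas were found, by the root mean square difference of log2 CPM after centring each gene. Bcl2 was taken for its smallest p-value among the members, and Fbxo45, which encodes a ubiquitin ligase subunit, was nearest to it, at a difference of 0.01. Fbxo45 measured 41.1, 44.1 and 40.5 CPM with DMSO and 51.4 and 48.0 CPM in Sorbinil replicates 1 and 3. Zfp609 and Zbtb43 followed, each at 0.02. Bbc3 was taken for its largest spread among the members. Nearest to it were Cmtm7, at a difference of 0.03, and the activity-regulated genes Sik1 and Bdnf, each at 0.06. Bdnf, a neurotrophin, measured 6.58, 6.42 and 3.98 CPM with DMSO and 3.18 and 4.43 CPM with Sorbinil, so that, as for Bbc3, DMSO replicate 3 lay among the Sorbinil retinas.

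The low-count genes of the lists, among them Eda2r with 4 to 24 counts, can say little. Casp14 was at 0 counts in all 5 retinas. Bcl2a1a, Bcl2a1d, Bcl2l14, Casp4, Birc5 and Trp73 were removed by the filter, with at most 18 counts in any retina. Bcl2a1a, Bcl2a1b and Bcl2a1d are near-identical copies, and their counts are uncertain.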
